A study of Mus musculus with 4 samples.

Results

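The 31 genes described here encode the constitutive proteasome core and regulatory particle, and were taken from a given list of symbols out of 55536 genes with a row in the deposited gene tables. They comprise the 7 alpha subunits (Psma1 to Psma7), 4 beta subunits without a proteolytic site (Psmb1 to Psmb4), the 6 ATPases (Psmc1 to Psmc6), 11 non-ATPase subunits of the regulatory particle and 3 chaperones that assemble its base (Psmd5, Psmd9 and Psmd10). The list of symbols was given and uses no threshold on a measured value. The constitutive catalytic subunits Psmb5, Psmb6 and Psmb7 are not among them and are given as other genes of the pathway. All 31 had a row and passed the filter on low counts.

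The proteasome is the protease that degrades ubiquitin-tagged proteins in the cytosol and nucleus. Its core particle is a barrel of stacked rings: outer alpha rings, which gate the entrance, and inner beta rings, which hold the proteolytic sites. The regulatory particle sits on the barrel. Its base holds a ring of ATPases that unfold substrates, and its lid removes ubiquitin. In macrophages, interferon exchanges the catalytic beta subunits for immunoproteasome subunits, which favour peptides for class I presentation, whereas the alpha subunits and the other beta subunits serve both forms.

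The RNA was polyA-selected from bone-marrow-derived macrophages of C57BL/6J mice, in 4 libraries of 1 group. Per the labels, the cells received 100 ng/ml lipid A, the membrane anchor of endotoxin, for 12 h, were washed out for 12 h and were taken at 0 min of a second stimulation. Other label fields name the agent lipoprotein A. The replicates are separate biosamples under 1 donor identifier, so p-values measure only the spread between these libraries. Age and sex were not collected. Untreated cells were not analysed here, and none of the values measures a response to the treatment.

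Gene counts totalled 25594340 to 57126810 per library. All 10 macrophage markers checked, among them Lyz2, Cd68 and Adgre1, were at 10 TPM (the deposited transcript abundance, scaled for length and depth) or more in every library. The listed T cell, B cell, dendritic cell, fibroblast and erythroid markers were all below 1 TPM in every library. Of the 6 neutrophil markers 4 stayed below 1 TPM, Ly6g among them at 0. S100a8 stood at 34.8, 4.67, 20.7 and 2.31 TPM in replicates 1 to 4, and S100a9 at 48.2, 8.36, 47.6 and 3.76 TPM. The endothelial pair Pecam1 and Cdh5 summed to 3.50 to 7.37 TPM. By the notes deposited with the tables, replicates 1 and 2 were each made from 6 read files, and the remaining libraries from 4 each. With that record went the depth, the mitochondrial share of counts (0.778% and 1.16% against 3.34% and 3.00%), and the ribosomal RNA share (9.12% and 1.20% against 0.569% and 0.610%). Their part in the differences between libraries given below was not tested.

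Proteasome RNA was abundant in these macrophages. Levels below are from the first of 2 deposited quantifications unless stated. Over all genes that passed the filter on low counts, TPM in the second was in the median 0.769, 0.789, 1.026 and 1.03 times that in the first, in replicates 1 to 4. How even a gene is across libraries, and whether the pairs overlap, therefore depends on the quantification. The 28 structural subunits averaged between 57.7 TPM (Psmd6) and 303 TPM (Psmd8), a 5.25-fold range of means, while the chaperones Psmd5 and Psmd9 stood below them. Within single libraries, the structural subunits covered a 5.16-, 4.35- and 6.81-fold range in replicates 1, 2 and 3. The range was widest in replicate 4, from 41.1 TPM (Psmd6) to 411 TPM (Psmd8). None of the 31 was under 10 TPM in any library, 27 were never under 50, and 19 averaged at least 100. For comparison, 10292 nuclear protein-coding genes averaged at least 1 TPM, with a median of 17.6 TPM, and 29 of the 31 were above that median. Together the 31 genes held 0.387%, 0.469%, 0.449% and 0.436% of all TPM in replicates 1 to 4. In bulk RNA, a lower level in fewer cells and in every cell cannot be told apart.

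The alpha ring was the most abundant role. Its median was 191, 227, 191 and 186 TPM in replicates 1 to 4, against 109, 137, 146 and 121 TPM for the ATPases and 82.3, 88.0, 96.7 and 87.0 TPM for the non-ATPase subunits. The ratio of the alpha median to the ATPase median was 1.56 ± 0.194 (SD, n = 4) and exceeded 1 in each library. The beta median was 176, 206, 103 and 95.0 TPM. It was above that of the ATPases in the first pair of libraries and below it in the last pair. The chaperone median was 16.8 ± 1.52 TPM, and the ATPase median exceeded it 7.63 ± 0.732-fold.

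**Figure D1:**
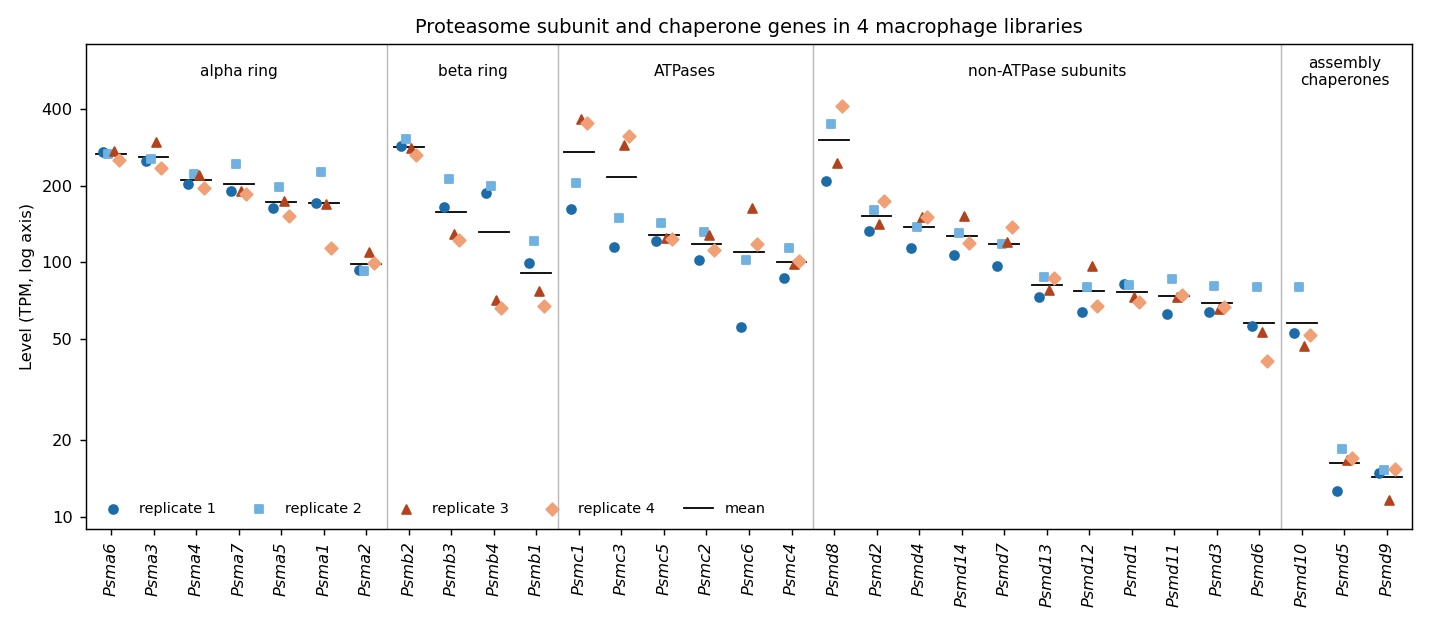
Level of each gene in TPM (first quantification, log axis), by role and in falling order of the mean within a role. Symbols are the 4 libraries and black lines the means. Most subunits lie between 50 and 300 TPM, with Psmd5 and Psmd9 below 20 TPM in every library, and the beta members and some ATPases split between replicates 1 and 2 and replicates 3 and 4.

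Among the alpha subunits, Psma6 was highest, at 270, 267, 273 and 252 TPM in replicates 1 to 4. In the first quantification these 4 values lay closest together of all members. Their mean was 266 ± 9.60 TPM (SD, n = 4) and the coefficient of variation 3.62%. Psma6 was less even in the second quantification, at 194, 195, 258 and 237 TPM. In the first, Psma3 followed at 249, 256, 297 and 235 TPM. Psma4 stood at 202, 221, 221 and 196 TPM, a coefficient of variation of 6.22%. These genes encode subunits of one ring that holds each alpha subunit once, yet their RNA levels were not equal. Psma2 was the lowest, at 93.1, 92.9, 110 and 99.0 TPM, and the ring's highest and lowest means differed 2.69-fold. Psma7 stood at 203 ± 27.2 TPM and Psma5 at 172 ± 19.5 TPM. Psma1, with 172, 227, 169 and 114 TPM, was the least even of the ring.

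By the first quantification, the beta members held one of the most even and the least even gene of the list. Psmb2 stood at 287, 305, 281 and 264 TPM, a coefficient of variation of 5.94%. Psmb4, whose product closes the beta ring late in assembly, stood at 187, 200, 71.0 and 66.4 TPM. Replicates 3 and 4 were far below replicates 1 and 2. The coefficient of variation was 55.1%, and no other member varied as much in the first quantification. Psmb3 stood at 165, 212, 129 and 123 TPM. Psmb1, the lowest of the 4, stood at 99.0, 121, 77.3 and 67.4 TPM. Both fell into the same order of libraries as Psmb4, with a smaller gap and no overlap between the pairs in the first quantification. In the second the pairs overlapped. There Psmb3 stood at 117.7 and 119.4 TPM in replicates 1 and 3, and Psmb1 at 71.4 and 76.9 TPM.

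Psmc1 led the ATPases at 163, 206, 364 and 353 TPM. Psmc3 followed at 115, 149, 290 and 313 TPM. Psmc6 was lowest in replicate 1, with 55.7, 102, 164 and 118 TPM. These 3 genes were higher in replicates 3 and 4 without overlap. Psmc3 and Psmc6 had the largest coefficients of variation after Psmb4, at 45.7% and 40.6%. The other ATPases were even: Psmc5 averaged 128 ± 9.54 TPM and Psmc2 118 ± 13.8 TPM. Psmc4 had the lowest mean of the 6, at 86.7, 113, 98.2 and 102 TPM.

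The means of the non-ATPase subunits covered a 5.25-fold range. Psmd8, a lid subunit, was the highest member of all, at 208, 348, 245 and 411 TPM. Replicates 2 and 4 were its high libraries, an order that no label records. S100a8, given above, was low in the same libraries, and its part in the level of Psmd8 was not tested. Among the other lid subunits, Psmd14, the deubiquitinase that strips ubiquitin chains from substrates, averaged 127 ± 18.8 TPM. Its inactive partner Psmd7 averaged 118 ± 16.7 TPM. Psmd13, Psmd12, Psmd11 and Psmd3 lay between 69.2 and 81.6 TPM. Psmd6 was the lowest, at 56.2, 80.1, 53.4 and 41.1 TPM. In the base, the scaffold Psmd2 averaged 152 ± 18.8 TPM and the ubiquitin receptor Psmd4 138 ± 17.2 TPM, both above the second large scaffold, Psmd1, at 76.8 ± 6.16 TPM.

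The chaperones bind single ATPases while the base forms and leave before it is complete. Psmd10 (gankyrin) stood at 52.8, 80.2, 46.9 and 52.1 TPM, a level like that of Psmd6. Psmd5 stood at 12.7, 18.6, 16.8 and 17.0 TPM. Psmd9 (p27) was the lowest member, at 14.9, 15.3, 11.7 and 15.4 TPM. Each was compared with an ATPase gene of the base as a log2 ratio of TPM within each library. The pairs were chosen for this comparison, and which ATPase each chaperone binds was not examined. The ratio of Psmd5 to Psmc2 was -2.87 ± 0.13 (SD, n = 4), the smallest SD of the pairs computed. That of Psmd9 to Psmc6 was -2.85 ± 0.78, the largest SD of the pairs. For Psmd10 over Psmc4 the log2 ratio was -0.81 ± 0.25.

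In the order of all 31 means, 28 of the 30 neighbouring pairs were closer than the larger of their SDs. The exceptions were the step of 30.7 TPM from Psma7 to Psma5 and the step of 41.5 TPM from Psmd6 down to Psmd5. Neighbours in the order are therefore mostly not told apart by 4 libraries, which says nothing of members far apart in it. Of 9 pairs compared by an exact sign-flip permutation test over the 4 libraries (two-sided), 6 had the same sign in every library: the 3 chaperone pairs, Psmc1 over Psmc2 (log2 ratio 1.12 ± 0.54), Psma7 over Psma6 (-0.40 ± 0.18) and Psmb2 over Psmb1 (1.68 ± 0.29). Each gave the smallest p that 4 libraries allow in this exact test, with a Benjamini-Hochberg adjusted p of 0.188, so the design could not reach 0.05. Psmc4 and Psmc6 changed order between libraries, with a log2 ratio of 0.64 in replicate 1 and -0.74 in replicate 3. Psmd4 over Psmd2 (-0.14 ± 0.16) and Psmd14 over Psmd7 (0.11 ± 0.22) differed by no more than their spread.

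Replicates 3 and 4 were compared with replicates 1 and 2 on counts, over all 11991 genes that passed the filter, by edgeR's quasi-likelihood test. This compares libraries that differ in a technical record, not conditions. Of the 31 members, 1 fell and 1 rose at an adjusted p under 0.05. Of all tested genes 5.80% were called, 2.08% as higher and 3.72% as lower in replicates 3 and 4, so that the members' share is near the background. Psmb4 fell, with a log2 fold change of -1.46 (SE 0.15, edgeR adjusted p = 0.0224). Psmc3 rose, with a log2 fold change of 0.79 (SE 0.15, edgeR adjusted p = 0.0462). Without replicate 1 or without replicate 2 only Psmb4 was called, beside 1.4% and 5.44% of all genes tested in those fits, and without replicate 3 or replicate 4 edgeR called 0 members and 0 genes in all. At an unadjusted p under 0.05 those fits still held 7 and 3 members and 1955 and 1966 genes. With 3 libraries, the lone one of its pair is assumed to vary like the other pair.

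Several members lay close to the threshold. The log2 fold change was 0.79 for Psmc1 (SE 0.16, edgeR adjusted p = 0.051), -0.57 for Psmb3 (SE 0.14, edgeR adjusted p = 0.0715) and -0.58 for Psmb1 (SE 0.16, edgeR adjusted p = 0.0778). DESeq2 called all 3 in addition to Psmb4 and Psmc3. It called 16.2% of all genes it tested, 6.95% as higher and 9.24% as lower, and 2 members as higher and 3 as lower. The median log2 fold change of the 31 members was -0.08, beside -0.01 over all tested genes. The median absolute log2 fold change was 0.23 over the members against 0.36 over all tested genes. The absolute value was under 0.3 in 21 of 31 members and in 43.2% of all tested genes. Those genes were not matched to the members' level.

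By role, all 4 beta members had negative log2 fold changes, from -1.46 to -0.12, with a median of -0.58, but Psmb2 became 0.02 with offsets for GC content and length. Of the 6 ATPases 5 had positive values, from 0.01 to 0.79, and Psmc5 had -0.08. Psmc2 became -0.01 with those offsets. Across all alternatives 12 of the 31 members changed sign at least once, none of them with a main value above 0.27 in size. The alpha ring had a median of -0.08 and the non-ATPase subunits one of -0.02, with Psmd6 lowest at -0.51 and Psmd7 highest at 0.28. The 3 chaperones lay between -0.40 and -0.23. By TPM of the first quantification, replicates 3 and 4 were both above replicates 1 and 2 for 6 members (Psma2, Psmc1, Psmc3, Psmc6, Psmd4 and Psmd7), beside 29.6% of all tested genes. They were both below for 9 members (Psma1, Psma7, all 4 beta members, Psmd1, Psmd6 and Psmd10), beside 26.9% of all tested genes. Over the 31 genes, which share these 4 libraries, Pearson's r of the fold change was 0.05 with GC content and 0.04 with mean transcript length, and 0.16 and -0.11 without Psmb4. Over 11984 tested genes it was -0.21 and 0.06.

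**Figure D2:**
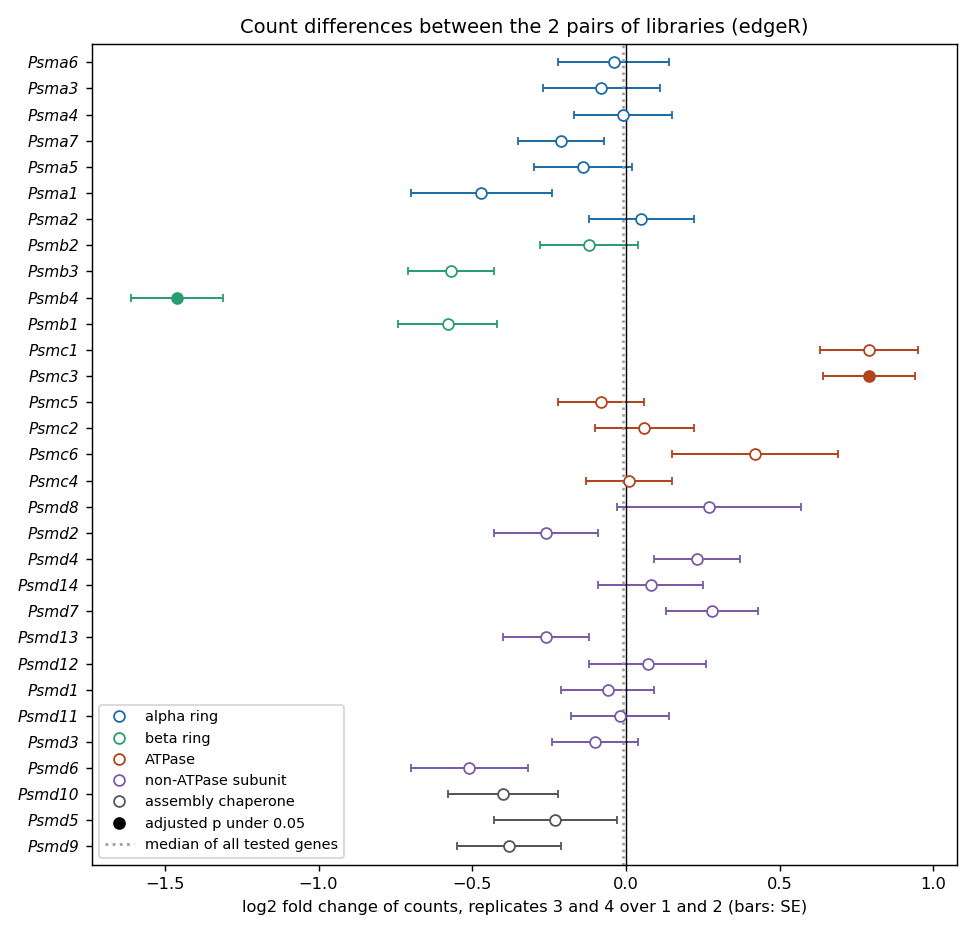
Log2 fold change of counts in replicates 3 and 4 over replicates 1 and 2 for each gene, with bars of 1 SE, coloured by role; filled points passed an adjusted p of 0.05 and the dotted line is the median of all tested genes. Psmb4 at -1.46 and Psmc3 at 0.79 are the 2 filled points, and most others lie within 0.3 of 0.

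TPM divides a gene's counts by the length of the transcripts they were assigned to, so that a shift between long and short transcripts changes TPM without changing counts. For Psma6 and Psmb4 both scales gave nearly the same value: the log2 ratio of mean TPM between the pairs of libraries was -0.03 and -1.49, and the log2 fold change of counts -0.04 and -1.46. For Psmc3 the TPM ratio was 1.19 and the count fold change 0.79. For Psmc6 they were 0.84 and 0.42. Psmd2, Psmd13 and Psmd5 had count fold changes of -0.26, -0.26 and -0.23 and TPM ratios of 0.10, 0.03 and 0.11, of the opposite sign.

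**Figure D3:**
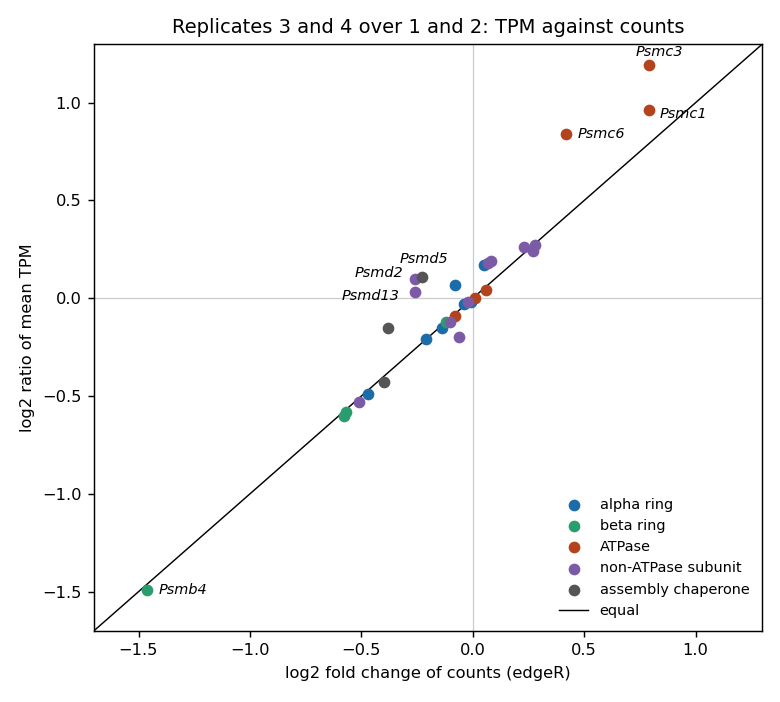
Log2 ratio of mean TPM (vertical) against log2 fold change of counts (horizontal), replicates 3 and 4 over 1 and 2, with 1 point per gene coloured by role and the line of equality. Psmb4 lies on the line at about -1.5, while Psmc3, Psmc6, Psmd2, Psmd13 and Psmd5 lie above it.

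The members varied less between libraries, in the median, than tested genes within the range of the members' levels. That range ran from 14.3 to 303 TPM, and its genes were not matched to the members' median of 127 TPM. With all 4 libraries in 1 group, the biological coefficient of variation in edgeR, the part of the spread beyond counting error, had a median of 0.199 over the 31 members. The median was 0.261 over all tested genes and 0.226 over the 5421 tested genes within the range of the members' levels. Psmb4 had the highest value, 0.410, followed by Psmc1 at 0.281 and Psmc3 at 0.276. Psmc4, Psmc5 and Psmd3 had the lowest, 0.181, 0.183 and 0.184. The value was above the trend for genes of like abundance in 7 members and below it in 24, beside 29.2% of all tested genes above it. No gene passed an adjusted p of 0.05 for excess variation in the quasi-likelihood fit of edgeR (lowest 0.951), while 528 of 11991 genes, among the members Psmb4 alone, had an unadjusted p under 0.05.

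**Figure D4:**
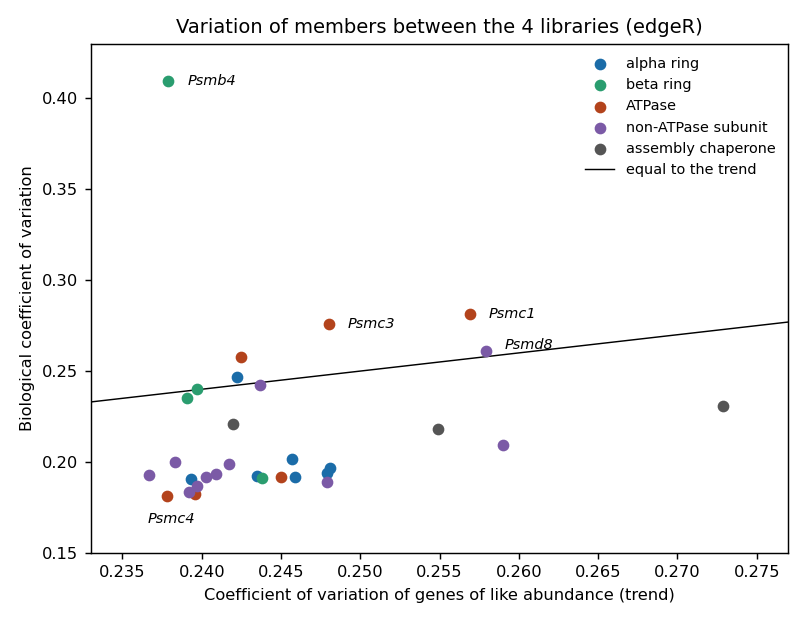
Biological coefficient of variation of each gene over the 4 libraries (vertical) against that of genes of like abundance (horizontal), coloured by role, with the line of equality. Most members lie near 0.20, below the line, and Psmb4 stands apart at 0.410.

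Every member had more than 1 annotated transcript. In the first quantification its main transcript, the one of largest mean share of the gene's TPM, was annotated as protein coding. In the second quantification the main transcript was the intron-retaining Psma3-203 for Psma3 and the nonsense-mediated decay model Psmd13-211 for Psmd13. In 16 of 31 members the main transcript of the first quantification held at least 90% in every library. In 6 members its share differed by at least 20 percentage points between replicates 1 and 2 and replicates 3 and 4 without overlap (Psma3, Psmc3, Psmc6, Psmd2, Psmd12 and Psmd13), beside 19.5% of 10469 tested genes with several transcripts. The second quantification gave such a difference as well for Psma3, Psmc3 and Psmd13, beside 12.0% of those genes. At thresholds of 10 and 30 points, 12 and 4 members had such a difference, beside 35.2% and 9.75% of those genes. The members' shares at 20 points are near the background. The main transcript differed between the 2 quantifications in 4 members (Psma3, Psmc3, Psmd13 and Psmd5), beside 11.5%. It fell under 50% in some library in 5 (those 4 and Psmd11), beside 38.2%.

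Psma3 was the most divided member. The nonsense-mediated decay transcript Psma3-201 held 46.7%, 52.3%, 20.1% and 13.0% of its TPM in replicates 1 to 4. The intron-retaining Psma3-203 held 36.4%, 35.4%, 14.7% and 10.6%. The coding Psma3-204, which lacks exon 2, held 10.1%, 4.22%, 59.97% and 69.96%. Psma3-204 thus held the largest share in replicates 3 and 4 and a small one in the others. The log2 fold change of the gene's counts was -0.08, against -0.56 in the second quantification (edgeR adjusted p = 0.124). In the second quantification Psma3-204 held 1.94%, 1.20%, 28.6% and 39.5%, and Psma3-203 led in 3 of the 4 libraries. The gene's TPM there was 142, 153, 150 and 118, on average 0.545 of the value in the first.

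The Psma3 models differ by small features. The gene lies on the plus strand of chr12 (mm10, chr12:70974621-70996347). Only Psma3-202, of the 9 models, combines exon 2, the longer form of exon 3 and a spliced intron between positions 70984595 and 70984671, which is 77 bases long and kept in Psma3-203. Its last exon is 1997 bases long, against 125 to 155 in Psma3-201, Psma3-203 and Psma3-204, and it held 2.39% to 3.97% of the TPM. Psma3-201 differs from it in splicing by starting exon 3 later by 5 bases. The junction of exon 2 and exon 3 is shown because it is the splicing difference between Psma3-201 and Psma3-202. The capitals are the 5 bases (positions 70983319 to 70983323) that Psma3-203, like Psma3-202, includes. The sequences are from GENCODE, 5′ to 3′.
Psma3-203: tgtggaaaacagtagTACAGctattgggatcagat
Psma3-201: tgtggaaaacagtagctattgggatcagat

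Psmc3 had one leading model in each pair of libraries. Psmc3-202 (1636 bases, 12 exons) held 73.4%, 66.2%, 30.2% and 27.1% of the TPM. Psmc3-210 (944 bases, 9 exons) held 23.7%, 29.4%, 64.8% and 71.2%. The second quantification gave 33.1%, 35.4%, 64.5% and 71.6% for Psmc3-210. All of its bases and junctions lie inside Psmc3-202, and it ends 1587 genomic bases before it, tagged as having no known end. No junction of its own sets it apart. The gene spans chr2:91054009-91066369 on the plus strand (mm10). It shares 215 exon bases with Slc39a13, a zinc transporter gene on the opposite strand, which had 31.1 to 40.5 TPM. Whether counting used strand is not given in the sources used here, and without strand the reads of both genes cannot be told apart there.

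In Psmc6 the full-length Psmc6-201 held 90.1%, 85.2%, 54.4% and 50.7%. The shorter nonsense-mediated decay model Psmc6-208 held 1.4%, 1.56%, 31.8% and 40.6%. Psmc6-208 ends 8854 genomic bases before Psmc6-201 and has an additional exon of 156 bases (chr14:45330366-45330521). In the second quantification Psmc6-201 held 59.96%, 50.5%, 41.9% and 38.0%, which is the same direction with a smaller shift. In Psmc1 the 551-base model Psmc1-203, which has the same first base as Psmc1-201 and ends 7539 genomic bases before it, held 4.19%, 2.04%, 20.5% and 16.03%, without overlap between the pairs. Psmd2-208, a 433-base model from inside the gene, held 0%, 0%, 20.5% and 27.5%, but at most 0.422% in the second quantification. Psmd12-202 held 0%, 0%, 31.1% and 15.01%, and 26.1%, 28.4%, 48.8% and 43.6% in the second quantification, so that it was not at 0 in any library there.

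Psmd13, a lid subunit, was divided between a coding and a nonsense-mediated decay model. Psmd13-201 held 59.0%, 55.1%, 27.6% and 24.6%. Psmd13-211 held 25.2%, 24.4%, 54.0% and 51.8%, and 35.2%, 32.2%, 52.9% and 51.8% in the second quantification. Psmd13-211 skips exon 3, which is 35 bases long (chr7:140886388-140886422, plus strand, mm10), and also starts later and ends earlier than Psmd13-201. The skipped exon is shown because joining its neighbours is what sets the splicing of Psmd13-211 apart from Psmd13-201, with exon 3 in capitals and 15 bases on each side.
Psmd13-201: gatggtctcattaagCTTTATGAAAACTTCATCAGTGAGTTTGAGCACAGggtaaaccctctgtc
Psmd13-211: gatggtctcattaagggtaaaccctctgtc

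Psmd5 and Psmd11 were divided between models in every library. Psmd5-201 (4397 bases) held 66.2%, 70.0%, 46.2% and 56.2%, but 43.5%, 42.2%, 42.8% and 45.8% in the second quantification. Psmd5-202 (555 bases) held 32.3%, 24.6%, 51.8% and 40.7%, but 51.8%, 41.5%, 49.9% and 46.8% in the second quantification. Psmd11-214 held 55.3%, 47.5%, 58.4% and 47.8% and Psmd11-201, with a longer 3′ end, 42.5%, 46.9%, 40.6% and 43.9%, with overlap between the pairs of libraries. Psmd11 itself stood at 62.8, 86.2, 73.0 and 74.4 TPM and Psmd13 at 73.4, 88.0, 78.0 and 87.0 TPM. Psmd1-208 took 20.5% of Psmd1 in replicate 1 and at most 2.27% in the others. Htr2b, a serotonin receptor gene that shares 252 exon bases with Psmd1 on the opposite strand, had 11.1 TPM in replicate 1 and at most 1.36 TPM in the others. The part of Htr2b reads in that share was not tested. In contrast, Psma5-201, Psmc2-201 and Psma6-201 held at least 99.07% in every library and in both quantifications.

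**Figure D5:**
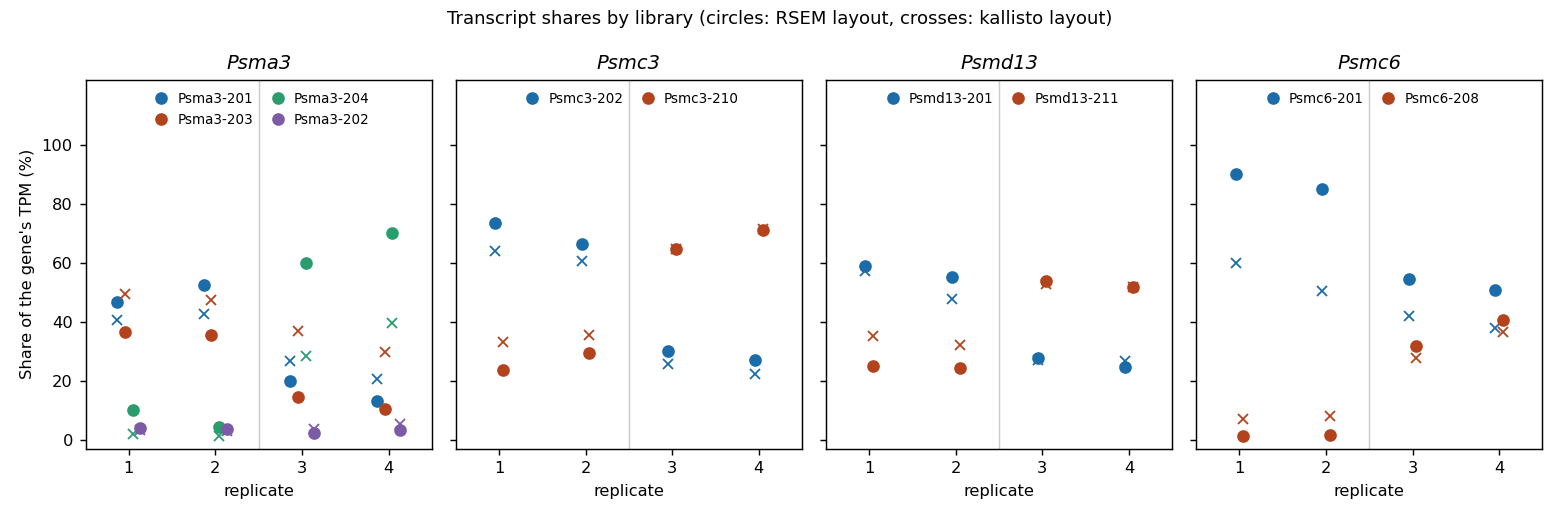
Share of the gene's TPM, in percent, held by the main transcripts of Psma3, Psmc3, Psmd13 and Psmc6 in replicates 1 to 4; circles are the first quantification (RSEM layout) and crosses the second (kallisto layout). In each gene the leading model of replicates 1 and 2 had smaller shares in replicates 3 and 4, as for Psmc3-202 with 73.4% and 66.2% against 30.2% and 27.1%.

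Promoter letters were examined as a feature that the list did not use. RefSeq promoter windows (GRCm38.p6, 250 bases before to 50 after the start) were held for 26 of the 31 genes, 28 windows in all. Psmb1, Psmb2, Psmc3, Psmd3 and Psmd7 had no entry. The member windows had a median GC content of 57.8% and a median of 20.5 CpG dinucleotides. Windows of tested genes had 60.7% and 20.0, and all 32851 windows 52.7% and 7. Because most genes in the table are not expressed here, windows of tested genes are the nearer comparison.

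Of 6 motifs searched on both strands, the ETS core CCGGAAG was found in 11 of 28 member windows (39.3%), from 10 genes, against 18.9% of 11508 windows of tested genes and 8.86% of all windows. CCAAT, which is bound by NF-Y, was found in 11 windows (39.3%), against 38.1% and 37.4%. The antioxidant response element core TGACNNNGC, through which Nfe2l1 raises proteasome genes when the protease is inhibited, was found in 3 windows (10.7%; Psmc6, Psmd12 and Psmd9), against 14.5% and 12.4%. TATAAA was found in 3 windows (Psmb4, Psmd1 and Psmd6; 10.7%), against 7.10% and 13.6%. GCGCATGC, part of the site of nuclear respiratory factor 1, was found in 2 (Psma2 and Psmc5; 7.14%), against 5.36% and 2.71%. The Yy1 motif CAAGATGGC was in none, against 2.42% and 1.24%. A match is a description of letters, and binding was not measured.

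The upstream stretches below show the matches in capitals, 5′ to 3′ on the gene's strand, ending before the first base of the gene in RefSeq and GENCODE. Psmd2 (chr16:20651592-20651651), Psmd11 (chr11:80428555-80428614) and Psmc6 (chr14:45329698-45329787), all on the plus strand, are shown for the ETS core, which in Psmd2 and Psmd11 begins 26 and 11 bases before the RefSeq start. Psmb4 (chr3:94886962-94887051, minus strand), the member that differed most between libraries, holds TATAAA beginning 76 bases before the start, overlapped by its reverse-strand match. Psmb3 (chr11:97703309-97703398, plus strand) holds CCAAT at 2 places. Psma2 (chr13:14613040-14613239, plus strand) holds GCGCATGC or its reverse complement 4 times, the last 2 overlapping, and 1 CCAAT.
Psmd2: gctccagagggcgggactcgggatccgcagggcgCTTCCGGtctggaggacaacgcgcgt
Psmd11: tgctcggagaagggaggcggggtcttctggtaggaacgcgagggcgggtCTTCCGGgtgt
Psmc6: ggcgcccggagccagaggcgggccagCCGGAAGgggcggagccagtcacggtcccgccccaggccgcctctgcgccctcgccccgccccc
Psmb4: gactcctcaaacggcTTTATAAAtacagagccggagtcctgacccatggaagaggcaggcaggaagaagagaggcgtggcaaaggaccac
Psmb3: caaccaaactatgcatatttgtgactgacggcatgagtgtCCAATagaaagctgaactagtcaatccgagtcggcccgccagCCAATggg
Psma2: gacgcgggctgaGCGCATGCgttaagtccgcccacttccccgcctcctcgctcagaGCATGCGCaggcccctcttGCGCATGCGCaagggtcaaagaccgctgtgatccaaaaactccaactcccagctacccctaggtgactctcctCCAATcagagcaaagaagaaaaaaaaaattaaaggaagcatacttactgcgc

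The other genes of the pathway were 39 with a row out of 41 listed symbols. Of 38 that were tested, 7 were lower in replicates 3 and 4 and 0 higher by edgeR at an adjusted p under 0.05, beside 3.72% and 2.08% of all tested genes. DESeq2 called 11 lower and 3 higher, beside 9.24% and 6.95% of all genes it tested. Their median log2 fold change was -0.22. Among the called genes were the catalytic subunit Psmb5, the immunoproteasome subunits Psmb9 and Psmb10, the core assembly chaperones Psmg3 and Psmg4, and the ubiquitin precursor gene Rps27a.

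Psmb5, which carries the chymotrypsin-like site, stood at 149, 181, 37.5 and 34.4 TPM. Its log2 fold change was -2.19 (SE 0.15, edgeR adjusted p = 0.0147), in the direction of the beta members and larger than that of Psmb4. Psmb6, the highest of the constitutive catalytic genes, stood at 274, 471, 267 and 295 TPM, with a log2 fold change of -0.38 that did not pass (edgeR adjusted p = 0.298). The immunoproteasome subunits stood above most members in mean level: Psmb8 averaged 654 ± 193 TPM, Psmb10 261 ± 116 TPM and Psmb9 166 ± 46.6 TPM. In replicates 3 and 4, Psmb9 stood at 125.5 and 125.9 TPM, near the members' medians of 128.2 and 118.5 TPM. Psmb9 had a log2 fold change of -0.86 (SE 0.16, edgeR adjusted p = 0.0432) and Psmb10 one of -0.80 (SE 0.15, edgeR adjusted p = 0.0454). Psmb8, with -0.83, did not pass (edgeR adjusted p = 0.0627).

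Among activators, the interferon-inducible Psme2 averaged 655 ± 220 TPM, above every member, and Psme4 was the lowest at 36.2 ± 5.06 TPM. The core assembly factor Pomp averaged 513 ± 146 TPM, whereas Psmg1 was the lowest of the assembly factors at 10.5 ± 2.20 TPM. Psmg3 stood at 22.5, 22.8, 7.08 and 6.32 TPM, with a log2 fold change of -1.69 (SE 0.23, edgeR adjusted p = 0.0326). Psmg4 stood at 34.1, 43.7, 16.1 and 16.5 TPM, with one of -1.23 (SE 0.23, edgeR adjusted p = 0.0439). Rps27a stood at 500, 713, 337 and 332 TPM (log2 fold change -0.96, SE 0.17, edgeR adjusted p = 0.0423). The highest ubiquitin gene, Ubb, averaged 1475 ± 348 TPM and Rps27a was the lowest of that group.

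Of the factors that control proteasome genes, Nfe2l1 averaged 172 ± 60.5 TPM and Ngly1, which activates its product, was the lowest at 17.6 ± 2.11 TPM. Nfe2l1 stood at 113, 217, 127 and 231 TPM, high in the libraries in which Psmd8 was high, an order noticed after the values were seen and not tested. Among proteins that deliver or release substrates, the unfoldase Vcp was highest at 151 ± 29.8 TPM and the shuttle Ubqln2 lowest at 13.8 ± 3.02 TPM. The proteasome-bound deubiquitinases Usp14 and Uchl5 averaged 53.7 ± 5.06 and 40.2 ± 16.1 TPM. The ubiquitin-activating enzyme Uba1 averaged 161 ± 47.8 TPM and the ligase Ube3c 9.55 ± 1.54 TPM. The testis subunit Psma8 stood at 1.69 to 2.5 TPM, and the thymus subunit Psmb11 had no count in any library.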

How the data were processed

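PolyA-selected RNA from 4 macrophage libraries of 1 group was analysed. Expected counts and TPM per gene and per transcript were deposited by the authors, made on mm10 with GENCODE M21 from a transcriptome alignment, per the deposited notes. A second set of estimated counts and TPM per transcript was made straight from the read files, per the same deposited notes. No program is named in these notes, and the sets are told apart by their column layouts (RSEM and kallisto, per the file headers). The first set also holds the authors' deposited posterior SD of each estimated count, which was at most 0.453% of the count for all 31 genes. Member counts ran from 490 to 18689 per library, and all p-values cover only the spread between these libraries.

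The 97 spike-in and 26248 tRNA rows were left out. Expected counts were rounded and tested with edgeR 4.0.16 (filterByExpr with a minimum count of 10, TMM, quasi-likelihood test, Benjamini-Hochberg adjustment at 0.05 over all genes), with DESeq2 1.42.0 as an alternative. Replicates 3 and 4 were set against 1 and 2 because the deposited notes list different numbers of read files for them. On simulated counts for that comparison over 11862 genes, edgeR recovered 64% of genes changed by a log2 of 1 and 99% of those changed by 2. For variation between libraries over 11848 genes, 55% of 191 genes of 16 times the dispersion were recovered. Those simulated counts held no difference between the pairs of libraries, and their dispersion trend was fitted with the pairs as groups. The rate therefore does not give the recovery of the variation fit on the deposited counts, which puts all libraries in 1 group. Pairs of genes were compared as log2 TPM ratios with no pseudocount, by an exact test.

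The members and lists were chosen with earlier results of these data known. Values in every library are printed for the highest and lowest member of each role, called members, the 3 most and the 3 least variable, and members whose main transcript was under 50% in a library or differed between the quantifications. Some further members are given because they lay near the threshold or to complete a role. Other pathway genes are named where called or where highest or lowest of their role. The values of 1 called pathway gene are not reported here. Alternatives were DESeq2, RLE size factors, no filter, the second quantification, offsets for GC content and length, TPM rescaled to nuclear protein-coding genes, and each replicate left out. Sequences came from RefSeq promoter windows (GRCm38.p6) and GENCODE M21 transcripts. Scripts ran in R 4.3.3 and Python 3.11.15.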

Additional observations from a re-analysis of the deposited data

Results flagged for a closer look

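In 7 of 68 sets of 4 values, 1 library lay so far from the other 3 that its gap to the nearest, over the whole range, exceeded the 95% critical value of Dixon's test. Chance gives about 1 in 20 such sets. Replicate 2 was the high library for Psma7, at 243.6 TPM, for Psmc5, at 142.4 TPM, and for the median of the alpha ring, at 226.6 TPM. Replicate 3 was the low library for Psmd9, at 11.72 TPM. Among main transcripts, Psma1-201 stood apart in replicate 2 with a share of 95.72% of the gene's TPM. Psmd7-201 stood apart in replicate 2 with 99.16%. Psmd1-201 was low in replicate 1 with 78.87%, the library in which Psmd1-208 was high.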

How the results depend on the processing

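The count of members called between the pairs of libraries was 2, beside 5.80% of all genes. It became 5 with DESeq2 (beside 16.2%), 1 with the second quantification (4.97%), and 0 to 1 with a replicate left out (0% to 5.44%). It was 2 with RLE size factors (5.92%), 3 with no filter (11.7%) and 3 with GC and length offsets (4.15%). The log2 fold change kept its sign under every alternative in 19 members and changed it in 12, none of which was called in the fit that changed it (lowest edgeR adjusted p 0.654). With GC and length offsets it became -0.06 for Psma2, 0.11 for Psma4, 0.04 for Psma6, 0.02 for Psmb2 and Psmd3, -0.01 for Psmc2, -0.06 for Psmd12 and -0.09 for Psmd14. With no filter it became 0.04 for Psma4, 0.01 for Psma6 and 0.03 for Psmd11, and with the second quantification it was 0 to 2 decimals, with a negative sign, for Psmc4. With a replicate left out it ran from -0.06 to 0.19 for Psma2, -0.25 to 0.08 for Psma3, -0.11 to 0.09 for Psma4, -0.17 to 0.12 for Psma6, -0.05 to 0.17 for Psmc2, -0.04 to 0.07 for Psmc4, -0.13 to 0.6 for Psmd8, -0.12 to 0.1 for Psmd11, -0.16 to 0.28 for Psmd12 and -0.08 to 0.24 for Psmd14. The median level of the members, 127.0 TPM, was 109.5 with the second quantification and 146.8 when TPM was rescaled to nuclear protein-coding genes. In the same order, the alpha ring median went to 147.2 and 233.5 TPM and that of the non-ATPase subunits to 74.21 and 94.24 TPM. Rescaling gave 142.2 TPM for the ATPases and 18.78 TPM for the chaperones. The median biological coefficient of variation was 0.201 to 0.2227 with a replicate left out. With thresholds chosen after seeing the data, a shift of 10 points in the main transcript was met by 12 members (beside 35.2% of genes) and one of 30 points by 4 (9.75%). The cause of these differences was not tested beyond what each setting changes. No paired analysis was possible because the series has 1 group. With 2 libraries a side, changes of a log2 of 1 are often missed.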
